A study of Mus musculus with 6 samples.

Results

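The genes described here were 8 genes of cardiac electrical activity: Kcnq1, Kcnh2, Kcnj5, Hcn4, Cacna1c, Cacna1g, Cacna1h and Gja5. They were chosen by gene symbol from a table of 26191 genes measured in embryonic mouse hearts, after the values of a gene's transcripts had been summed. All 8 were in the table and all 8 passed the filter on low values. The study asked what loss of Mrps5, a protein of the small subunit of the mitochondrial ribosome, did to the developing heart. Control hearts were Mrps5 fl/fl and carried no Cre, and mutant hearts (cKO) were Mrps5 fl/fl; cTNT-Cre littermates, all collected on embryonic day 12. Both groups thus carried the floxed allele, while Cre was present in the mutants only, so an effect of Cre itself cannot be told apart from the deletion. The troponin T promoter drives this Cre in cardiomyocytes, and the other cells of the heart keep Mrps5. Each group had 3 replicates, and the study's text describes each as a pool of 5 hearts.

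Each heartbeat starts in pacemaker cells, where HCN4 and T-type calcium channels help to bring the membrane to threshold. L-type calcium channels then admit the calcium that drives contraction, potassium channels end the action potential, and connexins let current pass from cell to cell. In the embryonic heart GJA5 (connexin 40) marks the atria and the trabeculae of the ventricles, the layer from which the fast conduction system develops.

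Values were deposited as FPKM, fragment counts per length of transcript and per size of library, which allows levels to be compared between genes but carries no read totals, and sequencing depth is therefore unknown. FPKM summed to between 454692 and 515952 per library. Differences are given on the log2(FPKM + 1) scale, mutant minus control, and were tested with limma over 13260 genes, those that reached 1 FPKM in 3 or more libraries. With 3 libraries a group, an exact permutation test cannot go below 0.1. Mrps5 was lower than every control in 2 of the 3 mutant libraries only: it had an FPKM of 9.65, 11.4 and 10.4 in the controls, 5.28 and 7.41 in mutant replicates 1 and 2, and 10.4 in the library labelled mutant replicate 3. Results are therefore given with and without that library. The summed level of 10 cardiomyocyte markers was lower in the mutants, at 6284 to 7479 FPKM against 7628 to 9101 in the controls. By their group means 10 of the 10 were lower, 6 of them at an unadjusted limma p under 0.05, beside 9.43% of all genes. The fall was uneven, since the mutant mean of Myh6 was 99.8% and that of Actc1 90.1% of the control mean. In whole hearts, fewer cells of a type and less RNA per cell cannot be told apart. The share of FPKM on erythroid genes was 12.2%, 13.3% and 12.0% in the controls and 23.5%, 10.8% and 21.9% in the mutants.

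Of the 8 genes, 7 had a lower mean in the mutants and Cacna1g a higher one. Gja5, Cacna1c, Kcnq1 and Cacna1h were lower at an unadjusted p under 0.05, and none of the 8 passed an adjusted p of 0.05 (limma, Benjamini-Hochberg over all genes tested). Among all genes tested 9.43% of genes were lower and 5.57% were higher at the unadjusted threshold, and 0.0830% passed the adjusted one. For Gja5, Cacna1c and Kcnq1 all 3 mutant values lay below all 3 control values, which held for 13.0% of all genes tested. The median difference of the 8 genes was -0.28, beside -0.021 over all genes tested. Without the library labelled mutant replicate 3, Gja5 passed the adjusted threshold in a comparison where 1.00% of all genes were lower past it. In that comparison 4 of the 8 were lower at the unadjusted threshold (Gja5, Cacna1c, Kcnq1 and Kcnh2), beside 8.82% of all genes, and Cacna1g was higher.

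**Figure D1:**
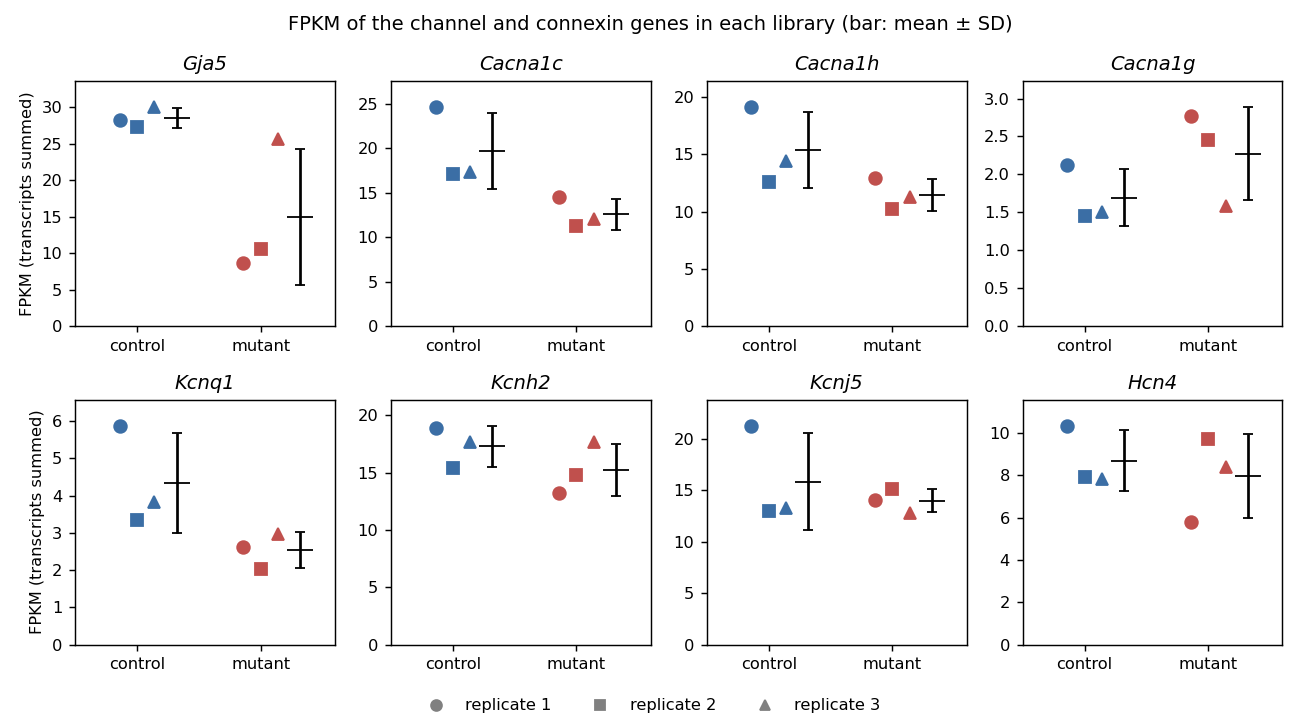
FPKM of each of the 8 genes (vertical axes, linear from 0) in the 3 control and 3 mutant libraries, with the replicate number as the symbol and the mean ± SD beside each group. Gja5 stands at 8.62 and 10.5 in mutant replicates 1 and 2 and at 25.6 in the library labelled mutant replicate 3. Control replicate 1 holds the highest value of 6 of the 8 genes.

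The order of the levels differed between the groups. In the controls Gja5 was the most abundant of the 8, with a mean of 28.5 FPKM, and its range did not overlap that of the next gene, Cacna1c. Cacna1c, Kcnh2, Kcnj5 and Cacna1h followed with means of 19.7 to 15.4 FPKM, and neighbours among them overlapped. Hcn4 (8.69), Kcnq1 (4.34) and Cacna1g (1.69) stood below them, each apart from the next. In the mutants the first 5 places were held by Kcnh2, Gja5, Kcnj5, Cacna1c and Cacna1h, with means of 15.2 to 11.5 FPKM and overlapping neighbours. The place of Gja5 rested on the library labelled mutant replicate 3, since the mean of mutant replicates 1 and 2 was 9.56 FPKM, below those of Kcnh2, Kcnj5 (14.6), Cacna1c (12.9) and Cacna1h (11.6). Hcn4 (7.97) did not overlap Cacna1h or Kcnq1 but overlapped Gja5, and Kcnq1 (2.54) and Cacna1g (2.27) overlapped. Control replicate 1 held the highest value of 6 of the 8 genes, whereas 22.9% of all genes tested were highest there. Values without that library are given for those 6 genes.

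Promoter windows of 300 bases were found in RefSeq (GRCm38.p6) for 5 of the 8 genes, and those of Gja5, Cacna1c and Hcn4 are shown because they stand for a conduction connexin with the largest difference, an L-type channel gene and the pacemaker channel. Both strands were searched for AAGTG, the core bound by NKX2-5. The T-box core AGGTGT was searched in the same way. A further search took AGATAA, to which GATA factors bind. None of these cores is contained in another. Of 32851 promoter windows of this length, 46.4% held the first, 13.7% the second and 11.2% the third. The windows run 5′ to 3′ on the strand of the gene, across its annotated start, with matches in capitals. Gja5 lies on the plus strand at chr3:97032152-97032451, the Cacna1c window on the minus strand at chr6:119108446-119108745, and Hcn4 on the plus strand at chr9:58822699-58822998.
Gja5: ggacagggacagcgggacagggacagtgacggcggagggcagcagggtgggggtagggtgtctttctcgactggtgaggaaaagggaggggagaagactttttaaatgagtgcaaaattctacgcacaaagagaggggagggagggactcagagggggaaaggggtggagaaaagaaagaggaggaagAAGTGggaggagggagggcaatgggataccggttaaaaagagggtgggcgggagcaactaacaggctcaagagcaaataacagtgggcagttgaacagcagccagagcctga
Cacna1c: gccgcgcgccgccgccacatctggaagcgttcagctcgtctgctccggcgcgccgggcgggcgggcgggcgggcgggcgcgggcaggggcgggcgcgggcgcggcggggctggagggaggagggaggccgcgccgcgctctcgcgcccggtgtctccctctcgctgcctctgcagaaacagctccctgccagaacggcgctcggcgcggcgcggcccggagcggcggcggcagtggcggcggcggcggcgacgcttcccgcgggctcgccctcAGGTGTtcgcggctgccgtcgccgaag
Hcn4: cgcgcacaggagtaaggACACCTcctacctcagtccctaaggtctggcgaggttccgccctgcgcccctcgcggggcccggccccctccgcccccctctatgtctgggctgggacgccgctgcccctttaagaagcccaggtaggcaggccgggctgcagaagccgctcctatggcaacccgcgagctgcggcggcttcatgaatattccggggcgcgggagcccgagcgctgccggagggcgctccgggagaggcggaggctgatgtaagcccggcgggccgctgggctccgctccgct
The Gja5 window held 1 NKX2-5 core and no T-box core. The Cacna1c window, with a GC content of 81.3% and 57 CpG sites, and the Hcn4 window, with 71.7% and 31, each held 1 T-box core, that of Hcn4 on the opposite strand (ACACCT). The median window held 52.7% GC and 7 CpG sites. The windows of the other Cacna1c starts and of Kcnh2 held none of these letters, and that of Kcnj5 held 1 AAGTG. The Cacna1c window shown was thus the only one of its gene with a match. Those of the other starts each had 51.3% GC, with 3 and 7 CpG sites. A match is a description of the letters and not a binding site.

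Gja5 (ENSMUSG00000057123) had the largest difference of the 8. It stood at 28.3, 27.3 and 30.0 FPKM in control replicates 1, 2 and 3, and at 8.62, 10.5 and 25.6 in mutant replicates 1, 2 and 3. The controls lay within a narrow range, mutant replicates 1 and 2 were far below it, and the library labelled mutant replicate 3 was just below it. The means were 28.5 ± 1.36 and 14.9 ± 9.32 FPKM (SD, n = 3 each), a log2 difference of -1.04 (standard error 0.32, limma adjusted p = 0.214). Mutant replicates 1 and 2 held 30.2% and 36.9% of the control mean, and the library labelled mutant replicate 3 held 89.8%. Without that library the log2 difference was -1.49, with a limma adjusted p of 0.000471, and over the 13 alternatives the adjusted p ran from 0.000471 to 0.507. The libraries with the lowest Gja5 were also those with the lowest Mrps5.

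GJA1 (connexin 43) couples working cardiomyocytes, and its gene stood at 79.0, 73.2 and 89.0 FPKM in the controls and at 90.7, 104 and 77.3 in the mutants, with a log2 difference of 0.17 (unadjusted p = 0.219). Gjc1 (connexin 45), the connexin of the early heart tube and the nodes, stood at 29.3, 30.0 and 30.0 FPKM in the controls and 22.9, 24.8 and 23.8 in the mutants. Gjc1 thus did not overlap between the groups and was low in all 3 mutant libraries, with a log2 difference of -0.31 (unadjusted p = 0.00301, adjusted p = 0.153). Scaled to the cardiomyocyte markers its groups overlapped and the difference was -0.0025 (unadjusted p = 0.983). That scaling raised the median difference of all genes to 0.26. A scaled value near 0 is a change close to that of the markers, and setting it against 0.26 largely undoes the scaling. Gja4 (connexin 37), an arterial endothelial connexin, stood at 8.95, 7.74 and 9.73 FPKM in the controls and at 6.55, 6.58 and 8.10 in the mutants. Like Gja5 it was below every control in mutant replicates 1 and 2 and higher in the library labelled mutant replicate 3, which overlapped the controls. It differed by -0.28 (unadjusted p = 0.0436, adjusted p = 0.317), by -0.37 without that library (unadjusted p = 0.0129), and by 0.0030 when scaled to the cardiomyocyte markers. In a ratio chosen after the values were seen, Gja5 made up 20.7%, 20.9% and 20.1% of the FPKM of Gja1, Gja5 and Gjc1 in the controls. In the mutants it made up 7.05%, 7.54% and 20.2% (exact permutation p = 0.2, and 0.267 adjusted over 4 ratios). In the library labelled mutant replicate 3 this share lay within the range of the controls. Arterial endothelial cells also express Gja5, and the summed level of 5 of their markers overlapped between the groups (40.2 to 44.5 FPKM in the controls, 37.9 to 43.1 in the mutants). Nppa, a gene of atrial and trabecular muscle, stood at 751, 620 and 793 FPKM in the controls and 1397, 1463 and 781 in the mutants, while the other 7 of 8 atrial markers were lower by their means. The part of cell composition in the Gja5 difference was not tested.

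**Figure D2:**
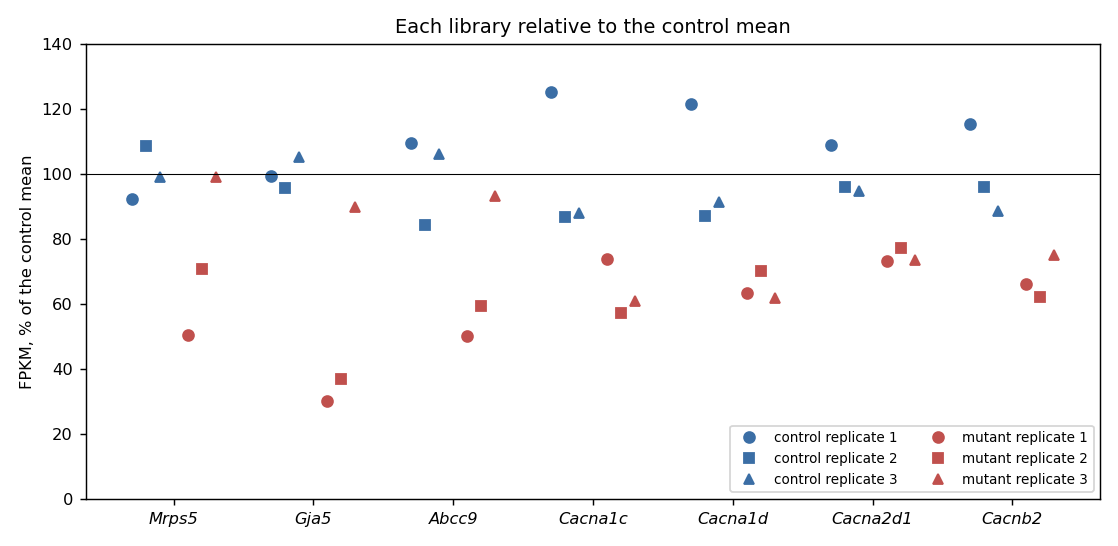
FPKM of 7 genes in each library as a percent of the control mean (vertical axis, linear from 0, horizontal line at the control mean). In the library labelled mutant replicate 3, Mrps5 stands at 99.2% and Gja5 at 89.8%, while Cacna1c stands at 61.1%, near the other mutant libraries.

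CACNA1C forms the pore of the main L-type calcium channel of heart muscle. Cacna1c (ENSMUSG00000051331) stood at 24.6, 17.1 and 17.3 FPKM in the controls and at 14.5, 11.2 and 12.0 in the mutants. All 3 mutant libraries were below all controls, and control replicate 1 was well above the other two. The means were 19.7 ± 4.30 and 12.6 ± 1.73 FPKM (SD, n = 3 each), a log2 difference of -0.59 (standard error 0.15, limma unadjusted p = 0.00464, adjusted p = 0.168). It was -0.57 without the library labelled mutant replicate 3, and that library held 61.1% of the control mean, close to the other mutant libraries. Without control replicate 1 it was -0.43.

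Cacna1d, Cacna2d1 and Cacnb2, which code for other L-type subunits, were lower with it. Cacna1d, the L-type pore of pacemaker and atrial cells, stood at 8.52, 6.09 and 6.40 FPKM in the controls and 4.44, 4.92 and 4.34 in the mutants. Cacna2d1, an accessory subunit that promotes channel surface expression, stood at 15.2, 13.4 and 13.2 against 10.2, 10.8 and 10.3. Cacnb2, the main cardiac beta subunit, stood at 19.1, 15.9 and 14.6 against 10.9, 10.3 and 12.4. None of these 3 genes overlapped between the groups, and 13.0% of all genes tested were lower without overlap. Control replicate 1 was the highest library of each. Their log2 differences were -0.51, -0.39 and -0.52, with unadjusted p of 0.00382, 0.00210 and 0.00213 and adjusted p of 0.161, 0.142 and 0.143 (limma). Without control replicate 1 the differences were -0.38, -0.33 and -0.42. Cacna1d made up 26.3% ± 0.649 of the summed FPKM of Cacna1c and Cacna1d in the controls and 26.8% ± 3.53 in the mutants (SD, n = 3 each, exact permutation p = 0.8). The 3 partner genes, like Cacna1c, were low in the library labelled mutant replicate 3. Of the 9 partner and inhibitor genes tested, 4 had a log2 difference below 0 and 5 above, and only Cacna2d1 and Cacnb2 passed the unadjusted threshold, beside 9.43% lower and 5.57% higher of all genes. Cacna2d2, Cacnb1, Cacnb3 and Cacna2d3, named after their values were seen, differed by -0.16, 0.15, 0.15 and 0.36.

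The cardiomyocyte markers were lower beside these genes. When each library was scaled to the geometric mean of those 10 markers, the difference of Cacna1c was -0.29 (unadjusted p = 0.101) and the groups overlapped. That of Cacna1d was -0.24 (limma unadjusted p = 0.108), that of Cacna2d1 -0.092 (unadjusted p = 0.451) and that of Cacnb2 -0.22 (unadjusted p = 0.116). The groups of these genes overlapped as well. The median of all genes under this scaling was 0.26. In the scaled comparison 1.40% of all genes were lower and 38.8% higher at the unadjusted threshold, and of the 8 genes Gja5 was lower (-0.74, unadjusted p = 0.0221, with an overlap) and Cacna1g higher (0.49, unadjusted p = 0.0295).

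T-type calcium channels open at more negative voltages and are prominent in embryonic heart muscle. Their 2 genes differed in direction by their means. Cacna1h (ENSMUSG00000024112) stood at 19.1, 12.6 and 14.4 FPKM in the controls and at 13.0, 10.2 and 11.3 in the mutants. The groups overlapped, since mutant replicate 1 lay above control replicate 2. The log2 difference was -0.38 (standard error 0.15, limma unadjusted p = 0.0363, adjusted p = 0.301), and it was -0.22 without control replicate 1 (unadjusted p = 0.126) and -0.082 when scaled to the cardiomyocyte markers (unadjusted p = 0.603). The unadjusted p exceeded 0.05 in 9 of the 13 alternatives, among them no filter (0.0553), median-ratio scaling (0.0567), scaling to non-erythroid FPKM (0.0590) and leaving out the library labelled mutant replicate 3 (0.0665). Cacna1g (ENSMUSG00000020866), the T-type gene that is kept in the adult conduction system, had the lowest group mean of the 8 in both groups, though in mutant replicates 1 and 2 Kcnq1 was lower. It stood at 2.12, 1.45 and 1.50 FPKM in the controls and at 2.77, 2.45 and 1.59 in the mutants. Mutant replicates 1 and 2 were above all controls and the library labelled mutant replicate 3 was within their range. The log2 difference was 0.27 (standard error 0.17, 95% interval -0.13 to 0.67, limma adjusted p = 0.503), and without that library it was 0.43 (unadjusted p = 0.0235, adjusted p = 0.241, with a range of 0.0941 to 0.769 over the 12 alternatives that gave a value). As a share of the FPKM of both T-type genes, a ratio also chosen after the values were seen, Cacna1g made up 9.99%, 10.3% and 9.44% in the controls and 17.6%, 19.4% and 12.3% in the mutants. All 3 mutant values lay above the controls, at the smallest exact permutation p that 3 against 3 allows (0.1, and 0.2 adjusted over 4 ratios).

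KCNQ1 forms, with KCNE1, the channel of the slow delayed rectifier potassium current, which helps to repolarise the heart. Kcnq1 (ENSMUSG00000009545) stood at 5.88, 3.34 and 3.82 FPKM in the controls and at 2.62, 2.02 and 2.98 in the mutants. The groups did not overlap, and the highest mutant value was close to the lowest control. The log2 difference was -0.57 (standard error 0.19, limma unadjusted p = 0.0149, adjusted p = 0.228), and it was -0.38 without control replicate 1 (unadjusted p = 0.0443). The unadjusted limma p exceeded 0.05 without mutant replicate 2, where the difference was -0.47, and with scaling to the cardiomyocyte markers, where it was -0.33. Kcne1 stood at 8.82, 9.54 and 10.3 FPKM in the controls and 13.2, 8.33 and 11.1 in the mutants, with a difference of 0.15 and overlapping groups. Kcnq1 amounted to 66.6%, 35.0% and 37.2% of Kcne1 in the controls and 19.8%, 24.3% and 26.9% in the mutants (exact permutation p = 0.1, and 0.2 adjusted over 4 ratios chosen after the values were seen). The antisense RNA Kcnq1ot1, which overlaps Kcnq1, was also lower, at 21.2, 16.3 and 13.5 FPKM against 11.3, 11.2 and 9.10. The libraries were made with a kit that marks strand, but whether strand was used in making the values is not given in the sources used here, so the levels of the 2 overlapping genes are uncertain.

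KCNH2 carries the rapid delayed rectifier current. Kcnh2 (ENSMUSG00000038319) stood at 18.9, 15.4 and 17.6 FPKM in the controls and at 13.2, 14.8 and 17.7 in the mutants. Mutant replicates 1 and 2 were below all controls, and the library labelled mutant replicate 3 was above 2 of them. The log2 difference was -0.18 (standard error 0.12, 95% interval -0.46 to 0.10, limma adjusted p = 0.541), and without that library it was -0.28 (unadjusted p = 0.0397). Without control replicate 1 it was -0.11. Scaled to the cardiomyocyte markers it was 0.12, and the median of all genes was 0.26 under that scaling.

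KCNJ5 joins KCNJ3 in the channel through which acetylcholine slows the atria and nodes. Kcnj5 (ENSMUSG00000032034) stood at 21.3, 13.0 and 13.3 FPKM in the controls and at 14.1, 15.1 and 12.8 in the mutants. Apart from control replicate 1 all libraries lay close together. The log2 difference was -0.13 (standard error 0.18, 95% interval -0.54 to 0.27, limma adjusted p = 0.766), and it was 0.085 without control replicate 1. Kcnj3 was less abundant, at 3.72, 2.74 and 1.84 FPKM in the controls and 1.16, 2.03 and 2.42 in the mutants, and overlapped between the groups (-0.39, adjusted p = 0.460). Kcnj2, the inward rectifier that holds the resting potential of ventricular cells, differed by 0.0083 (adjusted p = 0.988).

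HCN4 is the pacemaker channel of the sinoatrial node and of early cardiomyocytes. Hcn4 (ENSMUSG00000032338) stood at 10.3, 7.92 and 7.81 FPKM in the controls and at 5.81, 9.72 and 8.39 in the mutants. Mutant replicate 1 was the lowest of the 6 libraries and the other two lay within the control range. The log2 difference was -0.13 (standard error 0.18, 95% interval -0.53 to 0.28, limma adjusted p = 0.783), and it was 0.060 without mutant replicate 1 and -0.0076 without control replicate 1. Tbx3, a repressor that maintains the nodes, differed by 0.067 (adjusted p = 0.888).

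Of 87 other channel, connexin and conduction genes listed, 53 passed the filter, and of these 12 were lower and 0 higher at an unadjusted limma p under 0.05, beside the 9.43% lower and 5.57% higher over all genes. No gene of the 53 passed the adjusted threshold, while the log2 difference was below 0 for 38 and above 0 for 15, with a median of -0.15. Scaled to the cardiomyocyte markers 2 were lower and 8 higher at the unadjusted threshold, where 1.40% of all genes were lower and 38.8% higher. Without the library labelled mutant replicate 3, 19 were lower and 4 higher, beside 8.82% and 6.42% of all genes, and Abcc9, Irx4 and Hopx passed the adjusted threshold. Of the listed potassium channel genes, 10 pore and 7 partner subunits were tested. With all 6 libraries 4 of them were lower at the unadjusted threshold, beside 9.43% of all genes. Kcna4, a subunit of the transient outward current, stood at 3.29, 2.44 and 2.29 FPKM in the controls and 1.29, 1.31 and 1.34 in the mutants, with little spread in the latter and a difference of -0.66. Kcnn2, a calcium-activated channel, differed by -0.43. Kcnj11 and Abcc9 code for the pore and the sulfonylurea receptor of the ATP-sensitive channel, and differed by -0.27 and -0.56. Scaled to the cardiomyocyte markers Kcnn2 (-0.20), Kcnj11 (-0.0060) and Abcc9 (-0.27) no longer passed the unadjusted threshold. Kcna4 still did (-0.45, limma unadjusted p = 0.0124). Without control replicate 1 Kcnn2, Kcnj11 and Abcc9 did not pass either (limma unadjusted p = 0.0732, 0.0974 and 0.0745). Abcc9 stood at 19.2, 14.8 and 18.6 FPKM in the controls and at 8.78, 10.4 and 16.3 in the mutants, near the controls in the library labelled mutant replicate 3.

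Among 18 regulators of conduction tissue tested, 15 had a log2 difference below 0, and Irx4, Hopx and Bves passed the unadjusted threshold. Of all 13260 genes 7293 lay below 0 and 9.43% were lower at that threshold. Hopx, a homeodomain protein of cardiomyocytes and the conduction system, stood at 62.3, 58.6 and 71.4 FPKM in the controls and at 40.3, 43.2 and 35.9 in the mutants. It was low in all 3 mutant libraries, with a difference of -0.67 (adjusted p = 0.0643). Irx4, a ventricular transcription factor, differed by -0.58, and Bves, a membrane protein of the Popeye family that binds cAMP, by -0.41. Scaled to the cardiomyocyte markers Irx4 (-0.29, unadjusted p = 0.0638) and Bves (-0.10, unadjusted p = 0.382) no longer passed the threshold, and Hopx did (-0.36, unadjusted p = 0.0198). Irx4 also belongs to the 6 ventricular markers, all of which were lower at the unadjusted threshold (summed, 3876 to 4970 FPKM in the controls and 3091 to 3542 in the mutants). Tbx5, a T-box activator of Gja5, stood at 31.6, 22.4 and 23.3 FPKM against 14.4, 22.1 and 21.5, just without overlap (-0.40, unadjusted p = 0.0577). Without control replicate 1 the Tbx5 difference was -0.25 (unadjusted p = 0.207). Nkx2-5 differed by -0.12 (adjusted p = 0.723), and its groups overlapped.

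**Figure D3:**
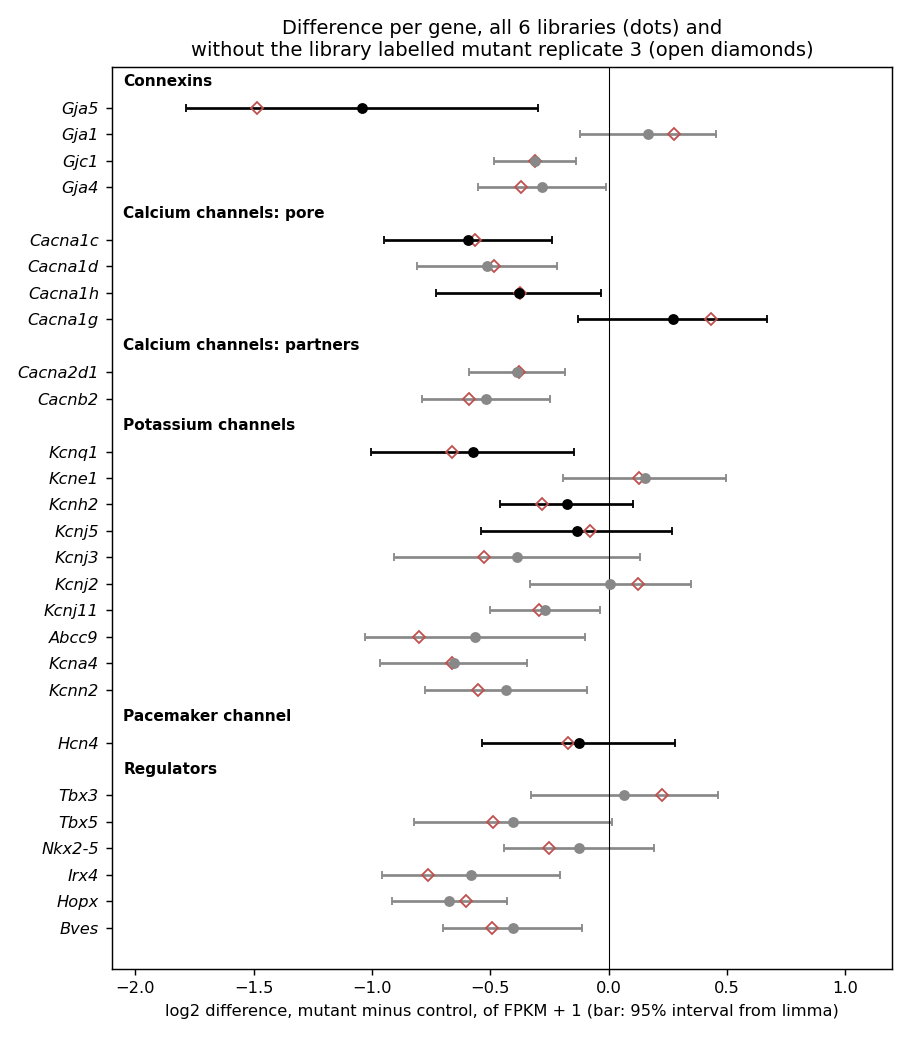
The log2 difference of FPKM + 1, mutant minus control (horizontal axis), with its 95% limma interval for the 8 genes (black) and for named partner genes (grey), grouped by role. Open diamonds leave out the library labelled mutant replicate 3, where Gja5 moves from -1.04 to -1.49 and Cacna1c from -0.59 to -0.57.

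For 7 of the 8 genes, the listed gene of the 53 with the most similar pattern was found by Pearson's r of log2 values over the 6 libraries, as a description. It was Abcc9 for Gja5 (r = 0.966), Kcnn2 for Kcnq1 (0.96), Kcna4 for Cacna1c (0.936) and Cacna2d2 for Hcn4 (0.913). It was Cacnb1 for Cacna1g (0.879), Cacna1d for Cacna1h (0.857) and Shox2 for Kcnj5 (0.773). These r share the group difference and the libraries' unequal erythroid share. Each is also the highest of 53 over only 6 libraries, so a high value follows in part from that choice.

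The table held 54 transcript rows for the 8 genes, of which 16 were listed at 0 in every library and 9 passed the filter. The main rows of Gja5, Cacna1c and Kcnq1 were lower at an unadjusted limma p under 0.05, beside 6.22% of all 20370 rows tested. No row of the 8 genes passed an adjusted threshold with all 6 libraries. Without the library labelled mutant replicate 3, 1 of their 9 rows did, beside 50 of all 20370 rows. Gja5-201, with 1074 coding bases, held 91.0% of the FPKM of its gene. It stood at 24.8, 25.1 and 27.4 FPKM in the controls and 8.40, 9.50 and 23.3 in the mutants, the pattern of the gene as a whole. Cacna1c-207, with 47 exons, held 79.5% of its gene and differed by -0.63. For Kcnq1 the spread of the controls came from short rows. Kcnq1-201, the row with 16 exons, stood at 3.39, 2.97 and 3.20 FPKM in the controls and 2.30, 1.78 and 2.51 in the mutants, with a difference of -0.39 (unadjusted p = 0.0314). Kcnq1-207, of 282 bases, stood at 1.73 in control replicate 1 and at 0.211 to 0.362 in the other 5 libraries. The high summed value of control replicate 1 thus rested in large part on 2 short rows, and the groups did not overlap in the long row either.

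The 2 main rows of Kcnj5 have the same coding exons and differed in opposite directions. Kcnj5-201 stood at 7.10, 8.01 and 7.62 FPKM in the controls and 4.54, 5.81 and 6.84 in the mutants, without overlap, a difference of -0.36 (unadjusted p = 0.0505). Kcnj5-202 stood at 14.2, 4.46 and 5.45 in the controls and 9.55, 9.32 and 5.79 in the mutants, with overlap and a difference of 0.16 (unadjusted p = 0.721). The high sum of control replicate 1 came from the second row. How reads were shared out between rows with the same coding exons is an estimate, so the split is uncertain. The 11 rows of Cacna1g changed places between libraries and none passed the filter, and only its sum is described. Kcnh2-201 and Cacna1h-201 held 97.4% and 95.4% of their genes, and Hcn4 had 1 row.

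**Figure D4:**
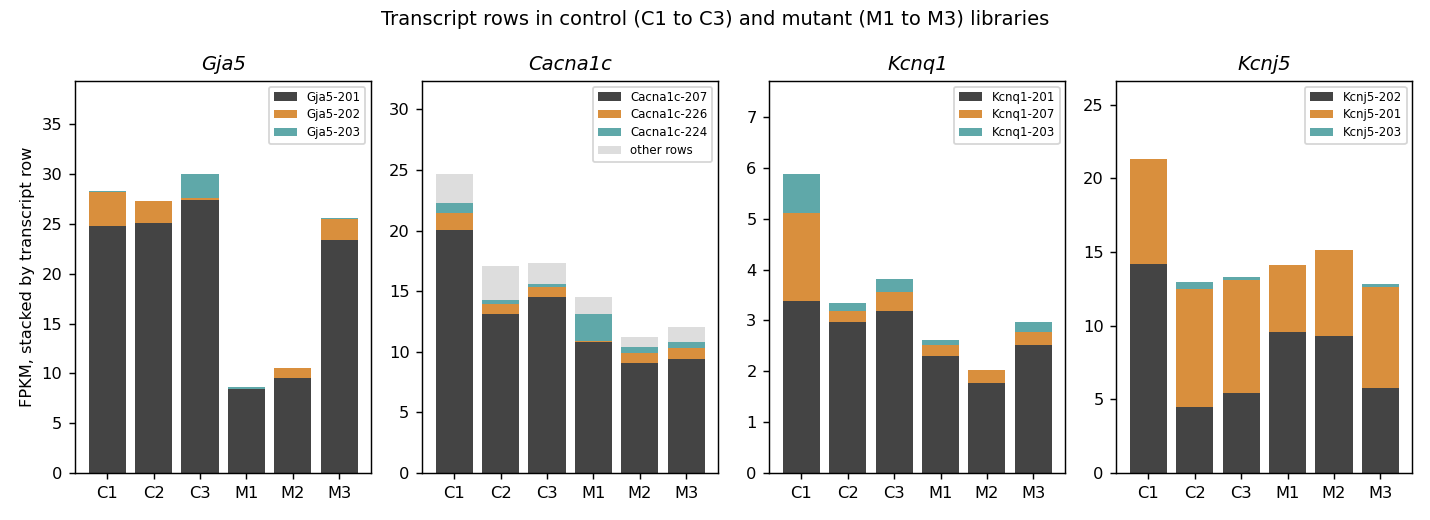
FPKM of the transcript rows of Gja5, Cacna1c, Kcnq1 and Kcnj5 (vertical axes, linear from 0) stacked by row in control (C1 to C3) and mutant (M1 to M3) libraries. The dark row of Gja5 and of Kcnq1 is lower in every mutant library than in every control, and in Kcnj5 the row that stands out in control replicate 1 at 14.2 is not the row that is lower in all mutants.

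**Figure D5:**
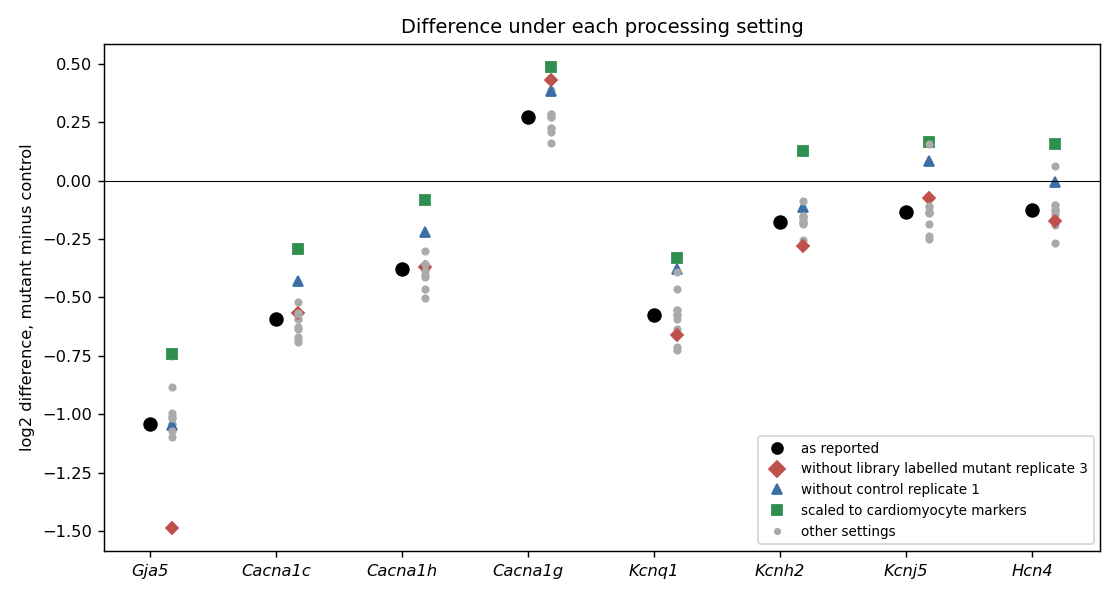
The log2 difference, mutant minus control (vertical axis), of each of the 8 genes as reported and under each alternative processing. Scaling to the cardiomyocyte markers moves every gene upwards and lifts Kcnh2, Kcnj5 and Hcn4 above 0, with the median of all genes at 0.26. Gja5, Cacna1c, Cacna1h and Kcnq1 stay below 0 and Cacna1g above 0 in every setting.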

How the data were processed

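Total RNA of 6 heart pools was depleted of ribosomal RNA and made into strand-marking libraries. The authors deposited 1 table of FPKM for 60776 transcripts. The submitters' notes name the build mm9 and the tools HISAT2, Bowtie2 2.2.8, StringTie 1.3.1 and Cuffdiff 2.1.1, without their roles. The annotation is not given in the sources used here. Transcript values were summed per gene, genes that reached 1 FPKM in 3 or more of 6 libraries were kept, and log2(FPKM + 1) was compared with limma 3.58.1 (R 4.3.3, variance trend, 95% intervals, Benjamini-Hochberg over 13260 genes). Adding 1 understates the change of low genes. The code was tested on simulated data. Groups came from the labels. P-values measure the spread between pools. Members and lists were chosen with earlier results of these data known. Named genes were the 8 members, Mrps5, listed genes at an unadjusted p under 0.05, fixed textbook partners and, per member, the listed gene most like it. Kcnq1ot1 and Nppa were added after their values were seen. Some listed genes named by this rule are not reported here. Exon numbers and lengths came from GENCODE M21 by transcript ID, and promoters from RefSeq. Alternatives were another pseudocount (0.1), no filter, a replicate block, each library left out, 3 scalings and the most abundant transcript alone. The other marker lists (endothelial and endocardial, epicardial, mesenchymal, neuronal, macrophage, liver) overlapped between the groups in their summed levels.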

Additional observations from a re-analysis of the deposited data

How the results depend on the processing

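The directions of Gja5, Cacna1c, Cacna1h, Kcnq1 and Cacna1g were kept under every alternative run, though Cacna1g was too low for the fit on the most abundant transcript alone. With 1 library left out, Kcnj5 ran from -0.25 to 0.085 and Hcn4 from -0.27 to 0.060. The sign turned for Kcnh2 with scaling to cardiomyocyte markers (0.12), for Kcnj5 without control replicate 1 (0.085), with that scaling (0.16) and with the most abundant transcript alone (0.16), and for Hcn4 without mutant replicate 1 (0.060) and with that scaling (0.16). The scaling moved the median of all genes from -0.021 to 0.26, and the number of genes above 0 from 5967 to 11519 of 13260. Over all genes, 11 passed the adjusted threshold as reported, 6 with no filter on low values, 1141 with scaling to cardiomyocyte markers, 4 with the most abundant transcript alone and 5 to 270 with 1 library left out, the highest without the library labelled mutant replicate 3. At the unadjusted threshold the count was 1990, 5327 with that scaling, and 1216 to 2167 with 1 library left out. Of the 8 genes, 0 passed the adjusted threshold, and 0 to 1 with 1 library left out. At the unadjusted threshold 4 passed, 2 with that scaling, and 2 to 5 with 1 library left out, the fewest without mutant replicate 2. Groups did not overlap for 3 of the 8, for 1 with that scaling, and for 3 to 5 with 1 library left out. Over all 13260 genes the same count was 2754, 5607 and 3583 to 4728. Of the listed genes, 0 to 3 passed the adjusted and 8 to 23 the unadjusted threshold with 1 library left out. Of the 9 transcript rows of the members tested, 3 passed the unadjusted threshold, and 1 to 4 with 1 library left out. Over all 20370 rows the same count was 2086, and 1387 to 2090. With the replicate number as a replicate block, 4 genes passed the adjusted threshold over the table. In that fit 5 of the 9 transcript rows of the members passed the unadjusted one, beside 2166 of all 20370 rows. The same-numbered libraries correlated by 0.217, 0.111 and 0.0901 in their deviations from the group means, and every library correlated best with its own number, a hint from the data and not from the labels, so the numbers were not taken as pairs. The causes of these shifts were not tested. The depth of the libraries is unknown, so the counting error of low genes such as Cacna1g cannot be given.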
